A study of Homo sapiens with 3 samples.

Results

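The genes described here are 10 that belong to the protease system of the epithelial cell surface, taken by name from a table of 30866 gene symbols. They are the membrane-anchored serine proteases ST14 (matriptase), PRSS8 (prostasin), TMPRSS2 and TMPRSS4, the secreted kallikreins KLK6, KLK10 and KLK11, the inhibitors SPINT1 and SPINT2, and SCNN1A, the alpha subunit of the epithelial sodium channel. Each stood on a single row. Of the 10, 8 reached 1 FPKM (fragments for each kilobase of transcript and for every 1000000 mapped fragments) in at least 1 library, and KLK10 and KLK11 did so in none.

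Serine proteases of this kind are made as inactive precursors and are switched on by cleavage. In epithelia, matriptase and prostasin sit on the plasma membrane and act on each other, on growth factor precursors, on junction proteins and on the sodium channel, whose gating is altered by proteolysis. The products of SPINT1 and SPINT2, also called hepatocyte growth factor activator inhibitors, are membrane proteins with Kunitz domains that block matriptase and its relatives and that also help it to mature and reach the surface. The balance of protease and inhibitor is known to matter for barrier formation and for epithelial tumours.

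RNA was sequenced from HCC827, an established line of human non-small cell lung cancer cells whose growth depends on a mutated EGF receptor. All 3 populations derive from 1 polyclonal pool of cells into which ClonTracer, a DNA barcode library, had been introduced. Vehicle cells had 4 days of 0.1% DMSO, and erlotinib-resistant cells had 47 days of 2 µM erlotinib, an EGF receptor inhibitor. Dual-resistant cells came from the erlotinib-resistant ones after 10 days of 2 µM erlotinib plus 0.2 µM crizotinib, which inhibits MET. Each population is represented by 1 library, so no difference below has an error or a test, and calls of higher or lower rest on size, with a limit of 2-fold on the scale of log2(FPKM + 1). Drug, duration and resistance differ together between the populations and cannot be told apart, and neither can fewer cells expressing a gene be told from less RNA per cell.

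The FPKM values summed to between 494817 and 596084 per library. The depth is known only roughly, with 1 FPKM in a transcript of 1 kb standing on about 43.1 to 68.6 fragments. All 7 epithelial markers examined (CDH1, EPCAM, KRT8, KRT18, KRT19, CLDN4 and CLDN7) stood at 1 FPKM or more in every library. Their summed level was 4824 FPKM in vehicle cells, 4091 in erlotinib-resistant cells and 1929 in dual-resistant cells. The 7 mesenchymal markers summed to 112, 53.7 and 608 FPKM, most of it VIM and FN1. VIM stood at 7.04, 23.3 and 414 FPKM and FN1 at 101, 27.9 and 176. They thus went opposite ways between vehicle and erlotinib-resistant cells, where the sum follows FN1. Of the leukocyte and endothelial markers, CD14 alone reached 1 FPKM, in the vehicle library, and CD3E was listed at 0 in all 3. The part of this epithelial to mesenchymal difference in the results below was not tested.

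**Figure D1:**
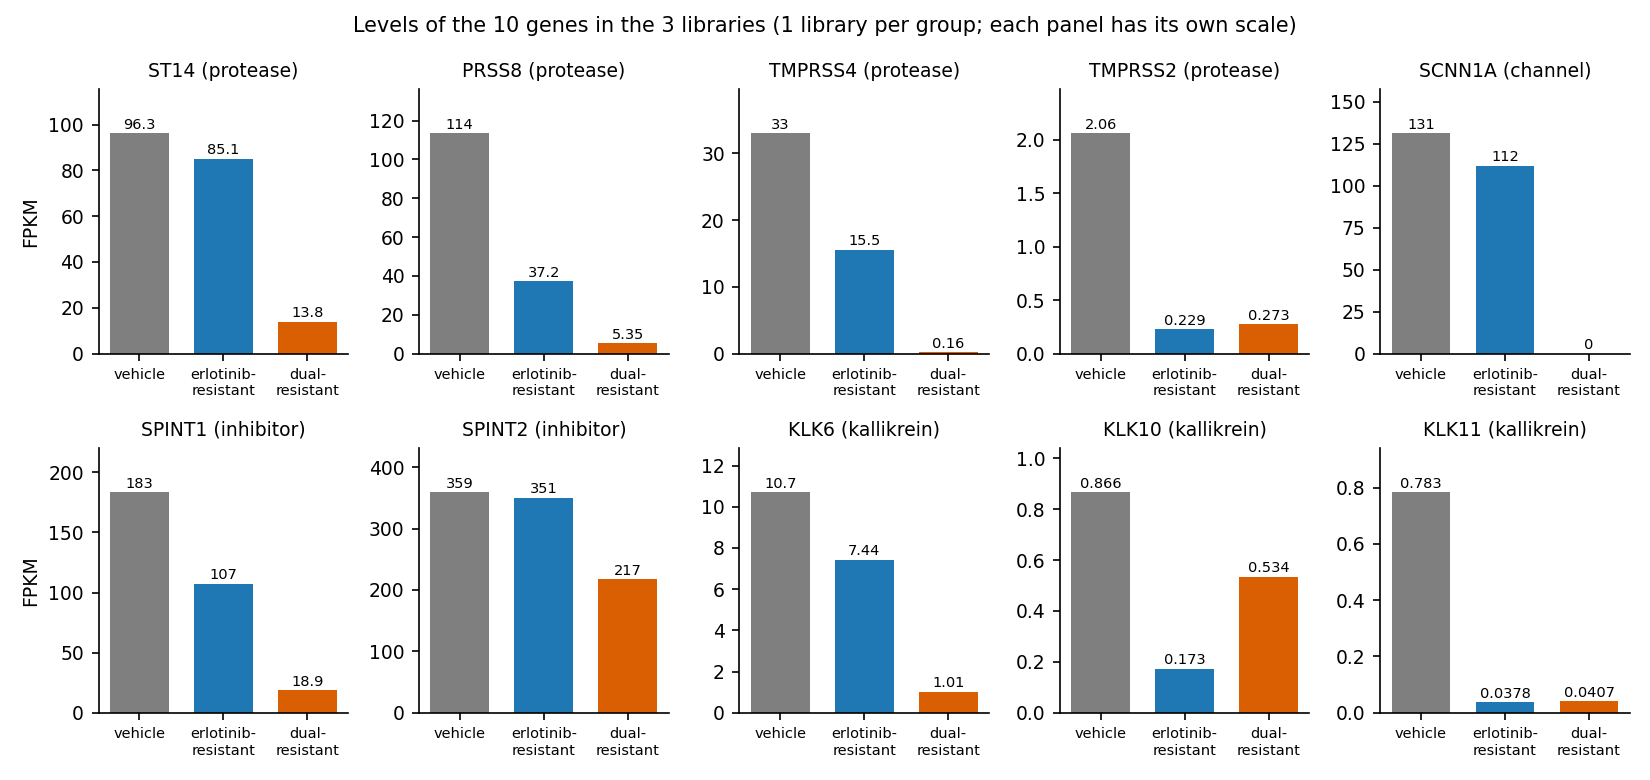
FPKM (y axis, from 0, with its own scale in each panel) of the 10 genes in the vehicle, erlotinib-resistant and dual-resistant libraries, 1 bar per library. ST14, SCNN1A and SPINT2 have nearly equal bars in the first 2 libraries, and SPINT2 alone among the abundant genes keeps most of its level in the dual-resistant library, at 217 FPKM against 359 in vehicle.

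All 10 genes had their highest deposited FPKM in vehicle cells, although SPINT2, at 359 against 351 in erlotinib-resistant cells, changes its order when libraries are scaled to equal sums or upper quartiles. The lowest level was in dual-resistant cells for 7 of them and in erlotinib-resistant cells for 3, TMPRSS2, KLK10 and KLK11. Of the 8 members compared, 6 were lower in dual-resistant than in erlotinib-resistant cells and none was higher, where 7.22% of 13385 genes were lower and 10.1% higher. Against vehicle, 7 of 8 were lower in dual-resistant cells and none higher, where 10.4% of 13378 genes were lower and 11% higher. In erlotinib-resistant cells 3 of 8 were lower than in vehicle and none higher, where 6.03% of 13381 genes were lower and 3.81% higher. The median log2 differences over the 8 were -2.49, -2.96 and -0.62 in these comparisons, beside medians of -0.03, -0.01 and 0.00 over all genes. The libraries are shared between the comparisons, and TMPRSS2 reached 1 FPKM in the vehicle library only, so that its direction against vehicle was fixed by the filter on low values. Without SCNN1A, which is listed at 0 in the dual-resistant library, the counts were 5 of 7 and 6 of 7.

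**Figure D2:**
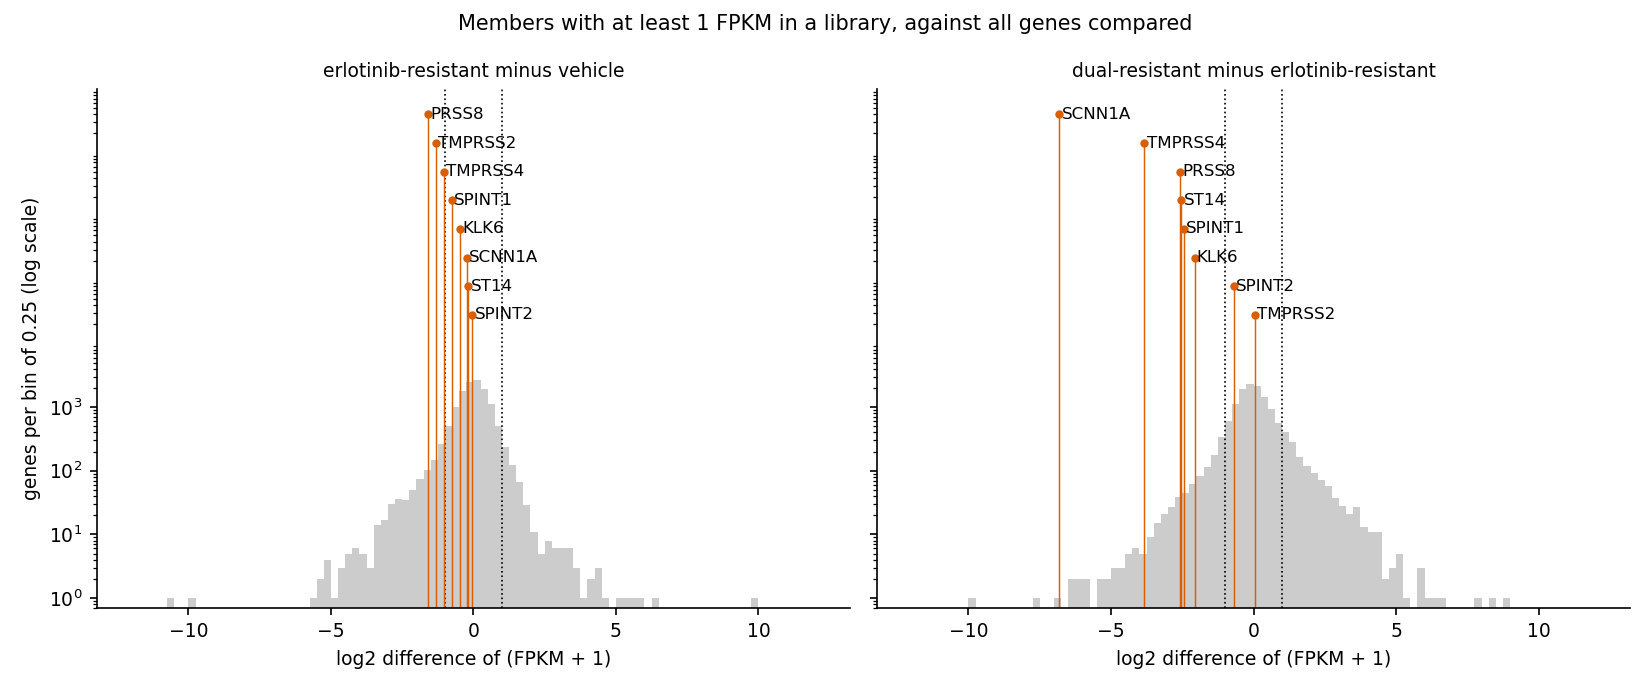
Histograms of the log2 difference of FPKM + 1 over all genes compared (grey, log count axis), for erlotinib-resistant minus vehicle on the left and dual-resistant minus erlotinib-resistant on the right, with the 8 members that reached 1 FPKM marked by lines. On the left PRSS8, TMPRSS2 and TMPRSS4 lie below the dotted line at -1, and on the right all but SPINT2 and TMPRSS2 do. The height of a line has no meaning.

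ST14 encodes matriptase, the protease at the head of this system (Entrez ID 6768, chromosome 11, 130029682 to 130080257, GRCh37, plus strand). It stood at 96.3 FPKM in vehicle cells, 85.1 in erlotinib-resistant cells and 13.8 in dual-resistant cells. The first 2 libraries were close and the dual-resistant library was low. The log2 difference was -0.18 between erlotinib-resistant and vehicle, or -0.01 once the libraries were scaled to equal sums. Between dual-resistant and erlotinib-resistant it was -2.54, a level 5.81-fold lower on the FPKM + 1 scale used for every fold here. Of the genes compared, 1.01% had a lower difference in that step.

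PRSS8 encodes prostasin, which is held to the membrane by a lipid anchor and works with matriptase (Entrez ID 5652, chromosome 16, 31142754 to 31147151, minus strand). Its levels were 113.6 FPKM in vehicle cells, 37.2 in erlotinib-resistant cells and 5.35 in dual-resistant cells. PRSS8 was thus lower at each step, by 2.997-fold from vehicle to erlotinib-resistant and by 6.02-fold from there to dual-resistant. Across both steps it was 18.0-fold lower. In the vehicle library its level was 1.18 times that of ST14, in the erlotinib-resistant library 0.438 times and in the dual-resistant library 0.387 times. The abundance of prostasin RNA relative to matriptase RNA therefore differed mainly in the first step.

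TMPRSS4, a transmembrane protease often abundant in carcinomas (Entrez ID 56649, chromosome 11, 117947727 to 117996042, plus strand), had the lowest value of the 4 membrane proteases in the dual-resistant library. It stood at 33.0 FPKM in vehicle cells, 15.5 in erlotinib-resistant cells and 0.160 in dual-resistant cells. By the rough depth estimate that last value stood on about 14.3 fragments. From erlotinib-resistant to dual-resistant it was 14.3-fold lower, and 0.239% of the genes compared had a lower difference. The step from vehicle to erlotinib-resistant lay at the limit, with a log2 difference of -1.04, which became -0.88 and lost the call when libraries were scaled to the same sum. A gene listed at 0 in every library, LOC100526771, overlaps TMPRSS4 by 9782 bases.

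TMPRSS2, a transmembrane protease best known for priming viral spike proteins and for its response to androgens (Entrez ID 7113, chromosome 21, 42836478 to 42903043, minus strand), was scarce throughout. Its levels were 2.06 FPKM in vehicle cells, 0.229 in erlotinib-resistant cells and 0.273 in dual-resistant cells. These stood on about 454, 34.8 and 37.7 fragments. Its log2 difference was -1.32 at the first step and 0.05 at the second. TMPRSS2 passed the filter through the vehicle library alone, so the direction of the first step was fixed. From 0.229 FPKM a further fall at the second step could hardly show, so its timing cannot be set against that of the other membrane proteases. The resistant libraries differed little in this gene.

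Summed over these 4 proteases, the level was 245 FPKM in vehicle cells, 138 in erlotinib-resistant cells and 19.6 in dual-resistant cells. ST14 and PRSS8 made up most of each sum.

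SPINT1 encodes the inhibitor HAI-1, which binds active matriptase (Entrez ID 6692, chromosome 15, 41136246 to 41149853, plus strand). It stood at 183 FPKM in vehicle cells, 107 in erlotinib-resistant cells and 18.9 in dual-resistant cells. The first step, with a log2 difference of -0.77, stayed within the limit, and at the second SPINT1 was 5.43-fold lower. Per molecule of matriptase RNA on the FPKM scale, SPINT1 stood at 1.90 in vehicle cells, 1.26 in erlotinib-resistant cells and 1.37 in dual-resistant cells. SPINT1 and ST14 thus kept a ratio between 1.26 and 1.90 although both were several-fold lower in the dual-resistant library.

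SPINT2 encodes HAI-2, an inhibitor with a broader range that acts on matriptase, prostasin and hepsin (Entrez ID 10653, chromosome 19, 38755098 to 38783254, plus strand). It was the most abundant member in every library, at 359 FPKM in vehicle, 351 in erlotinib-resistant and 217 in dual-resistant. In the dual-resistant library 99.0% of all genes lay below it. Its log2 differences were -0.03 at the first step and -0.69 at the second, and it was the single member with at least 1 FPKM in all libraries that stayed within 2-fold in every comparison. With libraries scaled to the same sum these became 0.14 and -0.59, so that the sign of the first turned.

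The ratio of SPINT2 to ST14 was 3.73 in vehicle cells, 4.12 in erlotinib-resistant cells and 15.7 in dual-resistant cells. Relative to PRSS8, SPINT2 stood at 3.16, 9.42 and 40.6. Both inhibitors together summed to 542, 458 and 236 FPKM, of which SPINT2 made up 66.2%, 76.6% and 92.0%. The sum of the inhibitors over the sum of the 4 membrane proteases was 2.21 in vehicle cells, 3.32 in erlotinib-resistant cells and 12.05 in dual-resistant cells. These ratios are taken within a library, so they do not depend on how libraries are scaled, and they describe RNA and not protein.

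**Figure D3:**
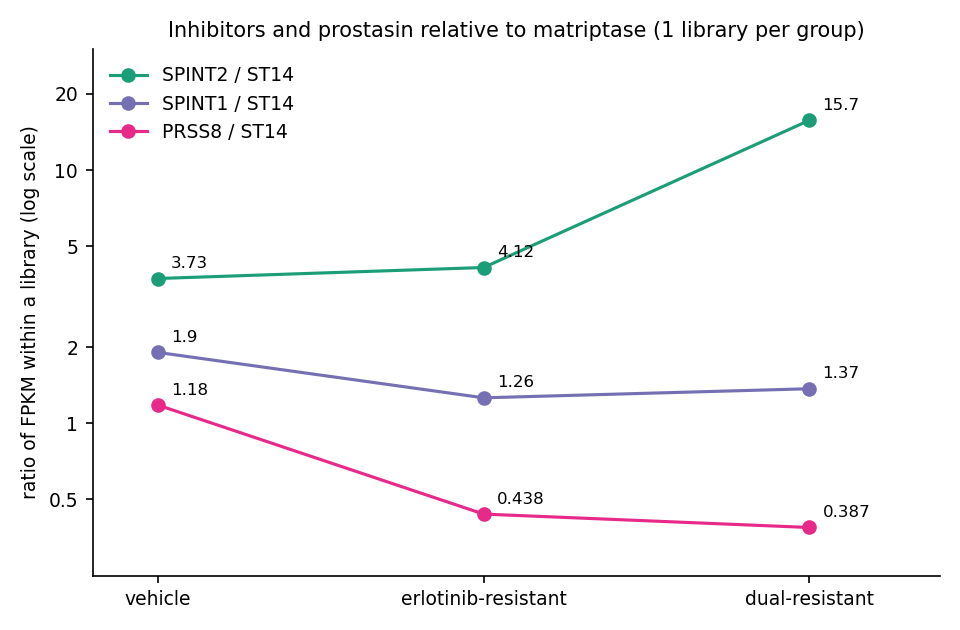
Ratio of FPKM within each library (log axis) of SPINT2, SPINT1 and PRSS8 to ST14, 1 point per library. SPINT2 over ST14 goes from 3.73 and 4.12 to 15.7 in the dual-resistant library, SPINT1 over ST14 stays between 1.26 and 1.90, and PRSS8 over ST14 goes from 1.18 to 0.438 and 0.387.

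SCNN1A encodes the subunit that the sodium channel of epithelia needs in order to conduct, and it is cut by furin and by surface proteases (Entrez ID 6337, chromosome 12, 6456009 to 6486523, minus strand). It stood at 131 FPKM in the vehicle library and 112 in the erlotinib-resistant library and is listed at 0 in the dual-resistant library. The first 2 libraries were close, with a log2 difference of -0.23, and no fold is given for the third. A listed 0 may also come from a gene that the quantification could not resolve. Among 666 genes at 100 FPKM or more in vehicle and erlotinib-resistant cells, 2 were listed at 0 in dual-resistant cells, SCNN1A and DEFB4A. SCNN1A shares 1929 bases with LTBR, a gene of the opposite strand, which stood at 110, 111 and 130 FPKM. Whether the 0 of SCNN1A is an absence of RNA was not tested.

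The other subunits of the channel were scarce in every library. SCNN1B, the beta subunit, was at or below 0.0509 FPKM, and SCNN1G, the gamma subunit, at or below 0.0207. SCNN1D, the delta subunit, stood at 0.821 FPKM in vehicle, 0.461 in erlotinib-resistant and 1.22 in dual-resistant. SCNN1A was therefore the one abundant channel subunit in the vehicle and erlotinib-resistant libraries.

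Among the kallikreins, secreted serine proteases encoded side by side on chromosome 19, KLK6 was the member with a substantial level (Entrez ID 5653, 51461887 to 51472929, minus strand). It stood at 10.7 FPKM in vehicle cells, 7.44 in erlotinib-resistant cells and 1.01 in dual-resistant cells. The first step stayed within the limit, with a log2 difference of -0.47, and at the second KLK6 was 4.19-fold lower. Its order of levels, highest in vehicle and lowest in dual-resistant cells, was that of 7 of the 10 members, KLK6 included. About 65.2 fragments stood behind the dual-resistant value.

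KLK10 (Entrez ID 5655, chromosome 19, 51516000 to 51523431, minus strand) stood at 0.866 FPKM in vehicle cells, 0.173 in erlotinib-resistant cells and 0.534 in dual-resistant cells. About 179, 24.7 and 69.2 fragments stood behind these values. KLK10 was thus lowest in erlotinib-resistant cells and intermediate in dual-resistant cells, an order that differs from that of KLK6. KLK11 (Entrez ID 11012, chromosome 19, 51525487 to 51531290, minus strand) stood at 0.783, 0.0378 and 0.0407 FPKM. The values in the resistant libraries stood on about 2.10 and 2.06 fragments, too few for a fold. KLK10 and KLK11 lie 2055 bases apart.

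Of all 15 kallikreins in the table, KLK6 and KLK4 alone reached 1 FPKM in a library. KLK6 made up 80.0% of their summed FPKM in vehicle cells, 87.7% in erlotinib-resistant cells and 30.4% in dual-resistant cells. KLK4, known from prostate and from tooth enamel, stood at 0.0146 FPKM in vehicle, was listed at 0 in erlotinib-resistant and stood at 1.34 in dual-resistant. It passed the filter through that library alone. The kallikreins listed at 0 numbered 2 in the vehicle library and 6 in each resistant library. This count was not adjusted for depth. By the rough estimate 1 FPKM in 1 kb stood on 68.6 fragments in vehicle, 47.4 in erlotinib-resistant and 43.1 in dual-resistant.

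**Figure D4:**
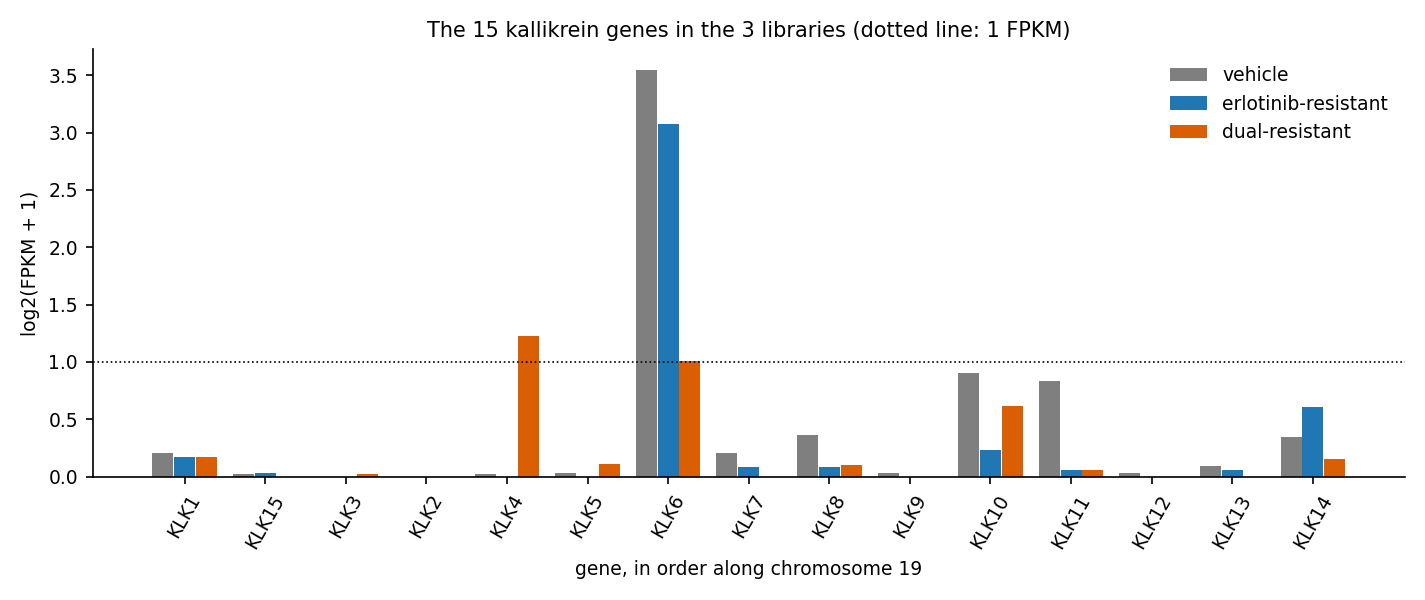
log2(FPKM + 1) of the 15 kallikrein genes in their order along chromosome 19, 1 bar per library. KLK6 stands out in the first 2 libraries, at 10.7 and 7.44 FPKM, and KLK4 is seen in the dual-resistant library only, at 1.34 FPKM.

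The promoter windows of members that hold the E-box CAGGTG, a sequence known to be bound by the repressors ZEB1, ZEB2 and SNAI2, are shown for SPINT1, KLK6 and KLK11. The RefSeq promoter table (GRCh38.p14) held 7 starts of 4 members, SPINT1, KLK6, KLK10 and KLK11, and none was used for ST14, PRSS8, TMPRSS2, TMPRSS4, SPINT2 or SCNN1A. In the 250 bases before each start, the E-box (CAGGTG on one strand, which is CACCTG on the other) was present in 3 of the 7, beside 17.5% of 35116 promoters of the same length. By gene, 20.6% of 27305 genes held it in at least 1 such window. The KLK10 windows overlap each other, and 4 members are too few for these shares to be compared. The E-box is in capitals below, 5′ to 3′ on the strand of the gene. SPINT1 is the second of its starts, chr15:40844227-40844476 on the plus strand, with the E-box starting 26 bases before the start. KLK6 is chr19:50969592-50969841 on the minus strand, with the E-box starting 222 bases before the start. KLK11 is the start at chr19:51026617-51026866 on the minus strand, with the E-box 13 bases before it.
SPINT1: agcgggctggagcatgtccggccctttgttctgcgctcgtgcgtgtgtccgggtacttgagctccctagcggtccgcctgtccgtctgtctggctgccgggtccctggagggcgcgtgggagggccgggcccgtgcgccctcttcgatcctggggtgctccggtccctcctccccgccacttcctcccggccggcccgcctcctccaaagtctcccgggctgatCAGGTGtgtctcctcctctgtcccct
KLK6: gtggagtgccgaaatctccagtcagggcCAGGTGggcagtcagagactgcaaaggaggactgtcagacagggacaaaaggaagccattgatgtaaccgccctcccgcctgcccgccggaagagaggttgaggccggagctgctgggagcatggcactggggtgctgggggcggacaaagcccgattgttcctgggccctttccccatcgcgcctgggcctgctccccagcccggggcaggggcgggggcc
KLK11: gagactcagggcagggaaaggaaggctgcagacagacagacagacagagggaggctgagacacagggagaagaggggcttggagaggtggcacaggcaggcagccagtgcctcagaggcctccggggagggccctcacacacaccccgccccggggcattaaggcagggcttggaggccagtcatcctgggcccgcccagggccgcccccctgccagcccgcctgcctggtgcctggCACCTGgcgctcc

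The first SPINT1 start, both KLK10 starts and the other KLK11 start held no E-box. The grainyhead-type motifs AACCGGTT and AACNGGTT, searched on both strands and overlapping each other, were in none of the 7 windows. In all promoters they were present in 0.117% and 1.49%. A match is a description of the letters and not of binding.

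Factors known to bind motifs of these kinds were looked at as well. GRHL2, a grainyhead factor that maintains epithelial genes, stood at 18.0 FPKM in vehicle, 19.2 in erlotinib-resistant and 2.44 in dual-resistant, and was 5.86-fold lower at the second step. ZEB1 stood at 0.107, 0.295 and 5.98 FPKM and ZEB2 at 0.0429, 0.197 and 7.03. Both passed the filter through the dual-resistant library alone, so that their direction at the second step was fixed by it. SNAI2, another E-box repressor, stood at 1.08, 12.2 and 20.6 FPKM. It was higher by 6.33-fold at the first step and within the limit at the second, with a log2 difference of 0.71.

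Of 9 epithelial factors listed, 8 were compared, and 7 were lower at the second step with none higher. They included EHF at 2.61 FPKM against 23.0, OVOL1 at 0.284 against 5.12 and OVOL2 at 1.35 against 8.75. At the first step TP63 alone of the 8 was lower, at 1.45 FPKM against 8.83 in vehicle. Over all genes compared, 6.03% were lower and 3.81% higher at the first step, and 7.22% and 10.1% at the second. Of the 5 repressors 4 were compared. ZEB1 and ZEB2 were higher at the second step, and SNAI1, at 3.14, 2.45 and 0.832 FPKM, was lower across both steps.

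Other serine proteases of the surface and their relatives, most of them membrane-anchored, were listed as well. Of 18, 7 were compared. At the second step, from erlotinib-resistant to dual-resistant, 4 were lower and 1 was higher, with a median log2 difference of -1.58. Over all genes 7.22% were lower and 10.1% higher at that step. The higher one of the 7, PRSS23, is secreted. With PRSS23 left out, the median of the other 6 was -1.89 and 4 of them were lower. That choice was made after the data were seen and removes the only higher gene. Whether the other 6 are all membrane-anchored was not checked. TMPRSS11E stood at 9.88 FPKM in vehicle, 11.01 in erlotinib-resistant and 0.926 in dual-resistant, and TMPRSS13 at 8.35, 12.3 and 1.90. Both stayed within the limit at the first step and were lower at the second.

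HPN, the gene of hepsin, a protease that like matriptase can activate hepatocyte growth factor, stood at 10.6, 2.63 and 0.215 FPKM. PRSS22, a tryptase of airway epithelium, stood at 85.0, 33.5 and 5.61. Both were lower at each step, as PRSS8 was. PRSS23 stood at 86.6, 116 and 339 FPKM. PRSS21, a lipid-anchored protease first described in testis, stayed within 2-fold, at 57.2, 68.4 and 48.1 FPKM.

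Other serine protease inhibitors went both ways. Of 23 listed, 15 were compared. At the second step 7 were lower and 4 higher, where 7.22% of all genes were lower and 10.1% higher. At the first step 7 were lower and 2 higher, where 6.03% of all genes were lower and 3.81% higher. SLPI, a secreted inhibitor of neutrophil elastase, stood at 157, 31.1 and 1.196 FPKM and was 72.1-fold lower across both steps. SERPINA3, which inhibits chymotrypsin-like proteases, stood at 49.3, 18.2 and 0.861. SPINK1, a trypsin inhibitor, stood at 40.5, 3.30 and 1.12, and WFDC2, a relative of SLPI, at 30.5, 7.37 and 3.35. PI3, the elastase inhibitor elafin, stood at 6.03, 0.480 and 0.128 and passed the filter through the vehicle library alone.

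Among the inhibitors that were higher at the second step, SERPINB2 and SERPINE2 are known to act on plasminogen activators, and TFPI2 is a secreted Kunitz inhibitor. SERPINB2 was listed at 0 in vehicle and stood at 0.0218 FPKM in erlotinib-resistant and 8.63 in dual-resistant, the library through which it passed the filter. SERPINE2 stood at 6.90, 14.7 and 40.5 FPKM, and TFPI2 at 21.7, 9.30 and 21.8. In dual-resistant cells SPINT2, at 217 FPKM, thus stood above SERPINE2 and TFPI2, while SPINT1 stood at 18.9 and SLPI at 1.196.

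Substrates of these proteases were for the most part lower at the second step. Of 16 listed, 12 were compared, of which 7 were lower and 1 higher, where 7.22% of all genes were lower and 10.1% higher. At the first step 1 was lower and 1 higher, near the shares of 6.03% and 3.81% over all genes. Across both steps 6 of the 12 were lower and 1 higher, where 10.4% of all genes were lower and 11% higher. EPCAM, an adhesion protein cut by matriptase, stood at 306, 345 and 41.1 FPKM. CDH1, E-cadherin, stood at 172, 194 and 22.8. EPCAM and CDH1 are also among the epithelial markers given above, so the lists overlap. LAMB3, a laminin chain, stood at 199.9, 139 and 22.9.

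PLAU, the urokinase precursor that matriptase can activate, stood at 203, 411 and 85.0 FPKM, higher at the first step and lower at the second. MST1R, the receptor of macrophage-stimulating protein, stood at 11.8, 9.46 and 1.67. PDGFC, a growth factor with a domain that proteases remove, stood at 13.98, 6.32 and 46.1 and was the substrate that was higher at the second step. It was also the one that was lower at the first, a call at the limit (-1.03) that scaling to equal sums removed (-0.88). HGF, the ligand of MET whose precursor matriptase and hepsin cleave, was at or below 0.700 FPKM in every library. F2RL1, the protease-activated receptor downstream of matriptase and prostasin, stood at 34.9, 23.4 and 34.4 FPKM and stayed within 2-fold.

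Of 9 genes that regulate or accompany the sodium channel, 8 were compared at 1 FPKM or more. At the second step 2 were lower and none higher, where 7.22% of all genes were lower and 10.1% higher. SGK1, the kinase that raises channel activity at the membrane, stood at 181 FPKM in vehicle, 23.0 in erlotinib-resistant and 37.4 in dual-resistant, and was 7.59-fold lower at the first step. NEDD4L, the ubiquitin ligase that removes the channel, stood at 10.3, 14.3 and 23.4. ATP1B1, the beta subunit of the sodium pump, stood at 306, 146 and 61.8. FURIN, the protease that makes the first cuts in the channel, stayed within 2-fold at 25.9, 19.8 and 18.0.

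**Figure D5:**
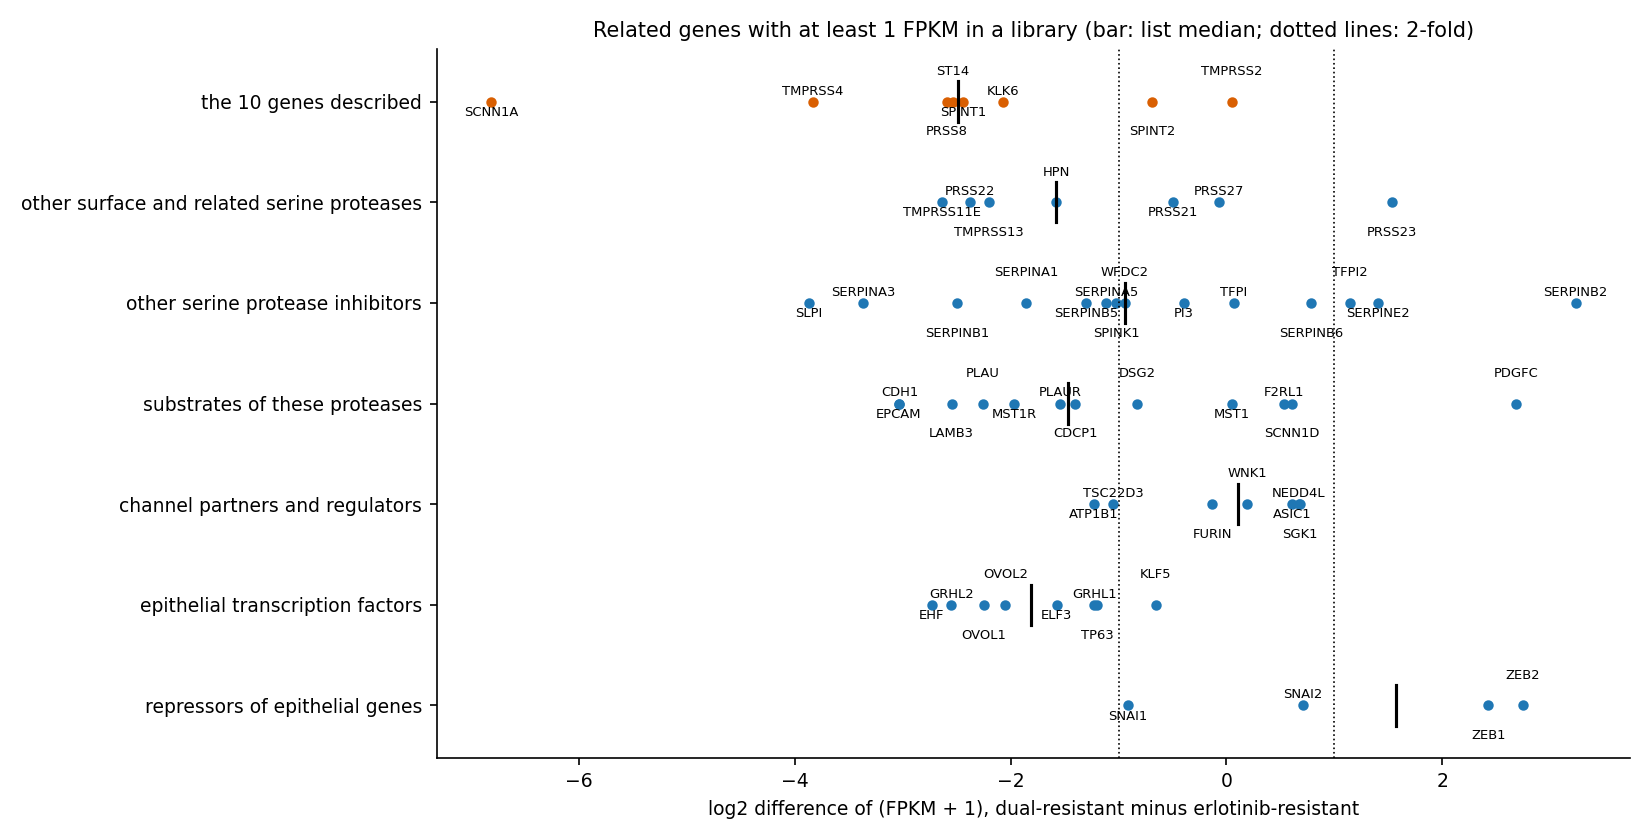
log2 difference of FPKM + 1 (x axis), dual-resistant minus erlotinib-resistant, for the described genes and 6 lists of related genes with at least 1 FPKM in a library, 1 point per gene and a bar at each median over all genes compared. Points of genes not reported here are left out. The described genes have a median of -2.49, other serine proteases -1.58, and epithelial factors -1.81, while the channel partners lie around 0.10 and the repressors at 1.57. Of the repressors, ZEB1 and ZEB2 passed the filter through the dual-resistant library alone.

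The genes most like ST14 over the 3 libraries were found among 10047 genes with at least 5 FPKM in a library and no listed 0, by the distance between their pair of log2 steps and that of ST14. The nearest were DLG3, at 33.0, 29.5 and 4.39 FPKM with a distance of 0.04, ATP2C2, at 11.5, 9.72 and 0.856, TRIB3, at 345, 283 and 46.1, DDIT4, at 503, 448 and 70.0, and C8orf73, at 16.0, 13.3 and 1.65. Of the members, KLK6 lay at a distance of 0.56, with 65 other genes nearer to ST14, and SPINT1 at 0.60, with 76 nearer. PRSS8 lay at 1.41, TMPRSS4 at 1.56 and SPINT2 at 1.86. A likeness over 3 libraries is a description only.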

How the data were processed

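The deposited table holds FPKM values made by the authors, with 1 column per library. Per the submitters' processing notes, TopHat 1.3 and Cufflinks 1.3 were used with GRCh37. The sources used here do not give the annotation, settings or strandedness, so reads of overlapping genes on opposite strands may not be separable. Rows sharing a symbol were summed, and log2(FPKM + 1) was subtracted between libraries, which understates differences of low genes. The comparison took in genes that reached 1 FPKM in any library. The limit for a call was a log2 difference of 1. The method was tested on simulated data with an assumed spread between libraries. Without replicates the real spread is unknown, so that test does not show how reliable the calls are here. Missing cells (25 to 36 per library) were left out. Starts were taken to count from 0, since among 58 rows with the same end as their RefSeq gene, 21 lie 1 base ahead of its start and 3 on it. They are printed from 1. Fragments behind a value were estimated from the percentile 1 of FPKM times length over 468 single-exon genes of 1 to 5 kb, and from median transcript lengths in GENCODE 29. Strands came from the same annotation. ASIC1 was matched by Entrez ID. Promoters came from RefSeq, without the 50 bases after the start. The members, lists, motifs, limits and 9 alternatives were chosen with earlier results of these data known. All 10 members are named, and of each related list up to 4 called genes with the largest difference per comparison, with other genes (the sodium channel subunits, PRSS21, SERPINE2, TFPI2, HGF, F2RL1, FURIN and genes overlapping members) named after their values were seen. Some list members are counted but not reported here. Python 3.11.15, pandas 2.3.3, numpy 2.4.6 and matplotlib 3.10.9 were used.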

Additional observations from a re-analysis of the deposited data

How the results depend on the processing

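With 1 library per group, all values rest on single libraries. No paired analysis was possible because no group has a second library. The count of lower members in the erlotinib-resistant library against vehicle, 3 of 8, became 1 with a pseudocount of 5 FPKM, which shrinks low genes, and 0 at a limit of 4-fold, where 2.65% and 1.59% of all genes were lower, and not 6.03%. It became 2 of 8 under both scalings, where TMPRSS4 passed to within the limit (-0.88 and -0.997) and 4.96% and 5.71% of all genes were lower. With a minimum of 5 FPKM, which leaves out TMPRSS2, it was 2 of 7 beside 5.51%. At the second step the count was 5 or 6 under all 9 alternatives, and across both steps it was 6 or 7. The share of all genes lower ran from 1.88% to 10.3% at the second step and from 3.50% to 13.2% across both. The smaller share was at a limit of 4-fold and the larger with a pseudocount of 0.1 FPKM. The members compared numbered 7, 8 or 10, depending on the setting. No called difference of a member or other named gene changed sign. Of 192 counts over the related lists under the alternatives, 20 moved by over 1.5 times. With libraries scaled to the same sum, the median log2 difference of all genes moved by 0.14, 0.08 and 0.24 in the first step, the second step and across both. Higher genes then made up 53.7% of calls and not 38.7% at the first step, and 66.0% and not 51.3% across both. Values of KLK10, KLK11, TMPRSS2 and TMPRSS4 below 1 FPKM are limited by depth.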

Other observations

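Genes beside the members on the chromosome, within 20 kb of them in the table, were looked at after the member values were seen. Beside SPINT1 on chromosome 15, PPP1R14D, an inhibitor of protein phosphatase, stood at 18.4 FPKM in vehicle, 3.81 in erlotinib-resistant and was listed at 0 in dual-resistant. RHOV, also beside SPINT1, stood at 13.3, 4.64 and 1.19 FPKM. Beside SPINT2, C19orf33 stood at 357, 580 and 240 FPKM and PPP1R14A at 15.9, 17.4 and 36.6. The neighbours of ST14 did not share its low value in the dual-resistant library, where APLP2 stood at 199.8 FPKM against 311 in erlotinib-resistant and ZBTB44 at 13.9 against 13.9. Beside SCNN1A, TNFRSF1A stood at 90.6, 85.0 and 116 FPKM. PLEKHG6, on the same side of SCNN1A and farther from it, stood at 7.97, 4.65 and 1.67 FPKM, with a log2 difference of -1.08 at the second step. Beside TMPRSS2, the interferon-induced gene MX1 stood at 162, 22.0 and 14.2 FPKM. TMPRSS2 was also lower in the resistant libraries, but it passed the filter through the vehicle library alone, so its direction was fixed.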
